A study of Rattus norvegicus with 12 samples.

Results

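Acsl1, Agpat2 and Agpat3 encode enzymes of the first steps by which a cell builds glycerolipids, and their transcripts were followed in rat testis across increasing durations of stress. The 3 genes were chosen by name from the spermatid markers that the study lists, out of 575 markers and 31522 features that could be followed here, and the rule sets no threshold on measured values. They are covered by 4 of the 31715 deposited transcripts. Acsl1 is the sum of ENSRNOT00000014235.3 and ENSRNOT00000089501.1, Agpat2 is ENSRNOT00000026408.7 and Agpat3 is ENSRNOT00000001602.5.

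Male Sprague Dawley (SD) rats, 8 weeks old, were kept as controls or exposed to RS+IS, which is restraint stress for 6 h followed by 5 min of swimming in ice water on each day, for 3, 14 or 21 days. Food and water were withheld from the controls too while the others were stressed, so this deprivation is common to the groups. Ribosomal RNA was removed from whole testis RNA and 12 directional libraries were sequenced, 3 for each of the control, 3-day, 14-day and 21-day stress groups. The study had 8 animals in a group and controls at each duration, but the labels do not give the duration to which the 3 control libraries belong. If all rats began at the same age, those stressed for longer were older at collection. Age and duration of stress therefore cannot be told apart between the stress groups or over the days of stress. The study describes its replicates as biological, and the labels add nothing on how samples relate to animals.

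Long-chain acyl-CoA synthetase 1, the product of Acsl1, joins a free fatty acid to coenzyme A. The acylglycerolphosphate acyltransferases encoded by Agpat2 and Agpat3 then use such activated fatty acids to turn lysophosphatidic acid into phosphatidic acid, from which both triacylglycerol and the phospholipids of membranes are made. AGPAT2 is best known from adipose tissue, where its loss causes lipodystrophy, and AGPAT3 is known for its use of polyunsaturated fatty acids. In the testis, the round and elongating spermatids remodel their membranes and build the acrosome, and the lipids of these cells are rich in polyunsaturated chains.

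The stretches of 250 bases that lie before an annotated start site of each gene are given to show how unlike these 3 stretches are. They come from RefSeq on the build GRCr8, which differs from the build of the expression files, and are written 5′ to 3′ on the strand of the gene. Capitals mark GGGCGG and CCAAT, the cores of the GC box and the CCAAT box, read on either strand.
Acsl1, chr16:52532393-52532642, minus strand: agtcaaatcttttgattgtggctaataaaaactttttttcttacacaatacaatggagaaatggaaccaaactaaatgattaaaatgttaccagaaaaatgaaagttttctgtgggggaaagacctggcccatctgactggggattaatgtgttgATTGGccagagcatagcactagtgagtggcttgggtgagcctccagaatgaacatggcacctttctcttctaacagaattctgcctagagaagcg
Agpat2, chr3:29826158-29826407, minus strand: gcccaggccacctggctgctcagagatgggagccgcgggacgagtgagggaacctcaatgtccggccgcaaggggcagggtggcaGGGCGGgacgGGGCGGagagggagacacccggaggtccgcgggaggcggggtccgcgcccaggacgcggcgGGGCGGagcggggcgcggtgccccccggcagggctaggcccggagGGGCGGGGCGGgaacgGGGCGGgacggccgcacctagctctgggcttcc
Agpat3, chr20:10383931-10384180, plus strand: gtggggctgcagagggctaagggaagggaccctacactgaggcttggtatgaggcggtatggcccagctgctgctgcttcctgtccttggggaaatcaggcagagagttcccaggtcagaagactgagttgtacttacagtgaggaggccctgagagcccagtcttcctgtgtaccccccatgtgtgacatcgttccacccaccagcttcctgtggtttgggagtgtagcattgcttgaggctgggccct
The Agpat2 stretch held 78.4% G and C, above 98.3% of the 33469 such stretches of the annotation, and GGGCGG stood in it 6 times, with a pair of copies that share a base. GGGCGG was present in 30.5% of all stretches. The Acsl1 stretch held 40.0% G and C and 1 CCAAT, a motif found in 34.0% of all stretches, and the Agpat3 stretch held 58.0% G and C and neither motif. The letters TGACG and TATAAA, searched on both strands and present in 18.2% and 8.06% of all stretches, were in none of the 3. For Acsl1 and Agpat3 the annotated gene also reaches upstream of its stretch, so other start sites exist and the one used in these samples is not known.

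In all 12 libraries the order of the levels was the same, with Acsl1 above Agpat2 and Agpat2 above Agpat3. The unit is the deposited TPM, an abundance relative to transcript length and to library size, which allows levels of different genes to be compared. The mean over the libraries was 278.6 TPM for Acsl1, 146.0 TPM for Agpat2 and 41.37 TPM for Agpat3. Among the 24585 features with a mean of at least 0.1 TPM these were places 577, 1156 and 3652, and among 384 spermatid markers they were places 82, 178 and 326. The 3 genes were well covered, with between 14801 and 22530 estimated counts per library for Acsl1, between 2429 and 3526 for Agpat2 and between 5464 and 7357 for Agpat3. Agpat2 has fewer counts than Agpat3 at a higher TPM, since its transcript has 1107 bases and that of Agpat3 has 6003.

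Acsl1 was lowest after 3 days and highest after 21 days. Its level was 240.9, 286.5 and 272.8 TPM in the control libraries, and 231.7, 260.8 and 247.7 TPM after 3 days. It was 295.8, 274.2 and 296.1 TPM after 14 days and 326.1, 312.4 and 298.3 TPM. All 3 of the 21-day values lay above all control, 3-day and 14-day values, and all 14-day values lay above all 3-day values, while control overlapped with both the 3-day and the 14-day group. The group means were 266.8 ± 23.4, 246.7 ± 14.6, 288.7 ± 12.5 and 312.3 ± 13.9 TPM (SD, n = 3 each) from control to 21 days. Relative to the control mean these were 0.925, 1.08 and 1.17 after 3, 14 and 21 days.

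Agpat2 followed the same order of group means over a smaller range. It was measured at 125.0, 150.3 and 153.2 TPM in the control libraries and at 128.9, 135.9 and 133.8 TPM in the 3-day stress group. It stood at 145.8, 143.7 and 164.7 TPM after 14 days and at 139.2, 164.6 and 167.0 TPM after 21 days. The 3-day values were close together and below every 14-day and 21-day value, and they fell inside the range of the control group, whose first library was the lowest of the 12. The means were 142.9 ± 15.5, 132.8 ± 3.55, 151.4 ± 11.5 and 156.9 ± 15.4 TPM (SD, n = 3 each), so the neighbours control, 14-day and 21-day in this order did not differ beyond their spread.

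Agpat3 was the steadiest of the 3, with a highest level 1.17 times its lowest, against 1.41 times for Acsl1 and 1.34 times for Agpat2. The control libraries gave 43.6, 42.3 and 42.2 TPM, and the 3-day stress group gave 38.1, 39.2 and 38.6 TPM. The later groups gave 43.3, 39.6 and 44.5 TPM after 14 days and 38.9, 43.6 and 42.6 TPM after 21 days. Every 3-day value lay below every control value and every 14-day value, whereas the first 21-day library, at 38.9 TPM, lay within the 3-day range. The means were 42.7 ± 0.799, 38.6 ± 0.523, 42.4 ± 2.56 and 41.7 ± 2.50 TPM (SD, n = 3 each).

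**Figure D1:**
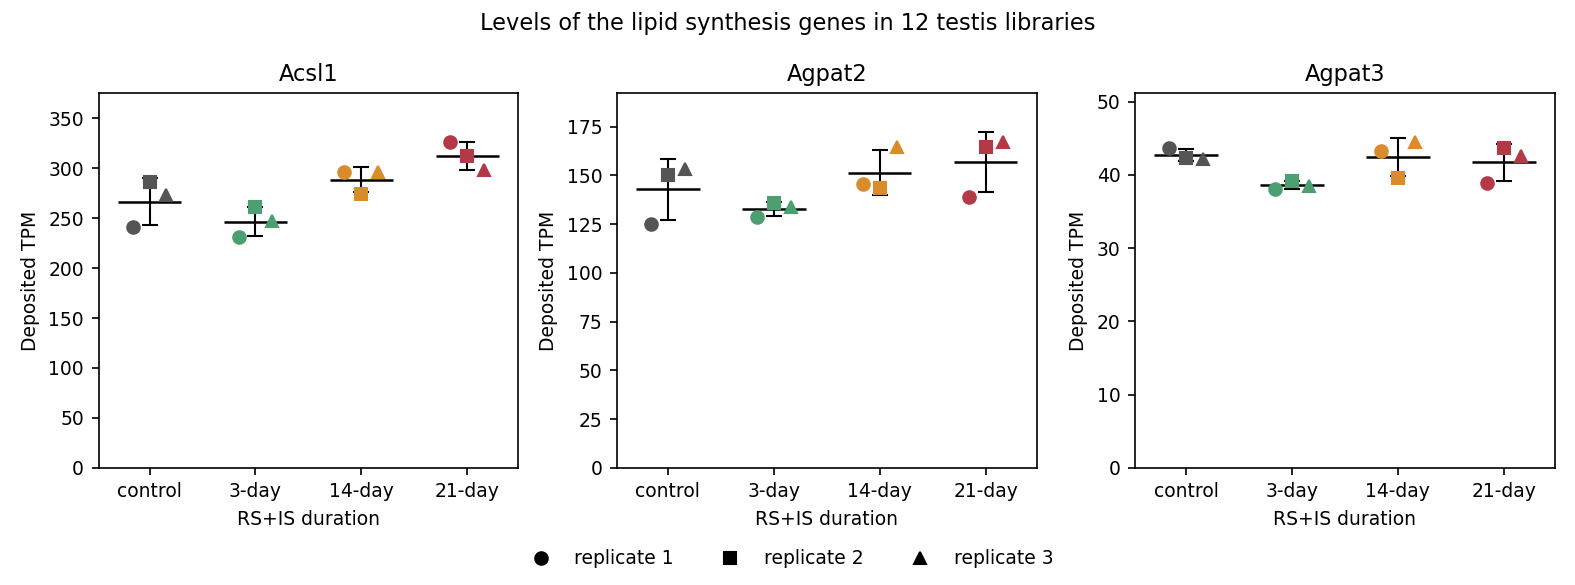
Deposited TPM of Acsl1, Agpat2 and Agpat3 (vertical axes, each from 0) in the control, 3-day, 14-day and 21-day stress groups (horizontal axes), with 1 point per library and bars for the mean ± SD. Acsl1 runs from 231.7 TPM in a 3-day library to 326.1 TPM in a 21-day library, while Agpat3 stays between 38.1 and 44.5 TPM.

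The question of the study, whether stress of each duration changed the germ cell transcripts of the testis, was first put to the 3-day stress group. None of the 3 genes passed an adjusted p of 0.05 against control (edgeR quasi-likelihood test, Benjamini-Hochberg adjusted over 21083 features), where the share called over all features was 0.0%. The log2 fold change was -0.16 for Acsl1 (standard error, SE, 0.0962, adjusted p = 0.985), -0.14 for Agpat2 (SE 0.0976, adjusted p = 0.985) and -0.18 for Agpat3 (SE 0.0488, adjusted p = 0.985), with an unadjusted p under 0.05 for Agpat3 alone, as for 2.01% of all features in this direction. Agpat3 was the 1 gene of the 3 whose TPM ranges were apart, all 3-day values being lower, which held for 2.69% of the features. All 3 genes were below the control mean in 3 of 3 libraries, and they stood low in the distribution of log2 fold changes, at percentiles 20.3, 22.0 and 17.9 of all features. The size for Acsl1 and Agpat2 depended on the control libraries, with -0.25 and -0.25 without control replicate 1, -0.084 and -0.089 without replicate 2, and -0.082 for Agpat2 without replicate 3.

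After 14 days the 3 genes overlapped with control in TPM, where 12.1% of the features had ranges apart and higher, and none passed the test (share called over all features 0.0%, edgeR). The log2 fold changes were 0.098 for Acsl1 (SE 0.0952, adjusted p = 0.684), 0.091 for Agpat2 (SE 0.114, adjusted p = 0.753) and -0.029 for Agpat3 (SE 0.0649, adjusted p = 0.87). Without control replicate 1 the values were 0.013 for Acsl1 and -0.012 for Agpat2, and without control replicate 2 they were 0.17 and 0.15.

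After 21 days Acsl1 stood 1.2-fold above control, with a log2 fold change of 0.26 (SE 0.104, adjusted p = 0.334, edgeR), and was higher in TPM in 3 of 3 libraries than in every control library. Such ranges, apart and higher after stress, were found for 10.4% of the features tested, 8.47% were higher at an unadjusted p under 0.05, as Acsl1 was, and 0.0189% passed the adjusted threshold. Agpat2 had a log2 fold change of 0.17 (SE 0.136, adjusted p = 0.582) and Agpat3 of -0.0084 (SE 0.0891, adjusted p = 0.972), and both overlapped with control. Without control replicate 1 the 21-day values were 0.16 for Acsl1 and 0.055 for Agpat2, and that of Agpat2 was 0.27 without 21-day replicate 1 and 0.087 without 21-day replicate 2. Among the 384 spermatid markers, 353 had a higher 21-day log2 fold change than Agpat3 and 55 a higher one than Acsl1. When the 14-day and 21-day libraries were pooled and set against control, none of the 3 passed (1.62% called over all features) and all overlapped with control (6.37% of features apart and higher), with log2 fold changes of 0.17 for Acsl1 (adjusted p = 0.299), 0.12 for Agpat2 (adjusted p = 0.546) and -0.024 for Agpat3 (adjusted p = 0.872). Without control replicate 1 these were 0.096 for Acsl1 and 0.028 for Agpat2, and without control replicate 2 they were 0.26 and 0.19.

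The stress groups were then set against one another. Between the 14-day and 3-day stress groups the TPM ranges of all 3 genes were apart, with 14 days higher, which held for 8.73% of the features, and no gene passed the adjusted threshold (0.0% called, edgeR). The log2 fold change was 0.25 for Acsl1 (SE 0.0579, adjusted p = 0.236), 0.23 for Agpat2 (SE 0.0714, adjusted p = 0.283) and 0.15 for Agpat3 (SE 0.0562, adjusted p = 0.326), each with an unadjusted p under 0.05, as 7.74% of all features had in this direction. Between the 21-day and 3-day groups Acsl1 was 1.31-fold higher, with a log2 fold change of 0.39 (SE 0.0693, adjusted p = 0.158, edgeR; 0.00471% called). Agpat2 had a log2 fold change of 0.29 (SE 0.095, adjusted p = 0.23) and Agpat3 of 0.15 (SE 0.0778, adjusted p = 0.377), and the unadjusted p was under 0.05 for Acsl1 and Agpat2, as for 8.23% of all features in this direction. Many of the 384 spermatid markers, the class of the 3 genes, shared this. At an unadjusted p under 0.05, 177 of them were higher for 14 against 3 days and 176 for 21 against 3 days. Between 21 and 3 days the ranges were apart for Acsl1 and Agpat2, as for 7.97% of the features, and overlapped for Agpat3. With DESeq2, the tool of the study, Acsl1 passed in both comparisons, with adjusted p = 0.00451 for 14 against 3 days and adjusted p = 1.14e-05 for 21 against 3 days, and Agpat2 and Agpat3 did not. DESeq2 called 417 and 808 features in them, where edgeR called 0 and 1.

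Between the 21-day and 14-day groups none passed (0.0% called, edgeR). The Acsl1 ranges were apart with 21 days higher, as for 2.59% of the features, at a log2 fold change of 0.16 (SE 0.0682, adjusted p = 0.999). For Agpat2 and Agpat3 the log2 fold changes were 0.075 (adjusted p = 0.999) and 0.017 (adjusted p = 0.999).

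With the days of stress taken as a number over all 12 libraries and control as 0 days, Acsl1 rose by 0.11 on the log2 scale per week, a 1.08-fold step (SE 0.0289, adjusted p = 0.0352, edgeR), in a fit that called 8.38% of 21999 features. Agpat2 had a slope of 0.081 per week (SE 0.0338, adjusted p = 0.149) and Agpat3 of 0.025 (SE 0.025, adjusted p = 0.572). The Acsl1 slope was higher than that of all but 37 of the 384 spermatid markers. In the same fit 65 of the 384 passed the adjusted threshold as higher. The call of Acsl1 rested on having all libraries. The slope stayed between 0.0923 and 0.124 when 1 library was left out, but the adjusted p was above 0.05 in 9 of 12 such fits. It was 0.0758 without control replicate 1, 0.0575, 0.0622 and 0.0667 without 3-day replicates 1, 2 and 3, 0.061 and 0.0589 without 14-day replicates 1 and 3, and 0.0752, 0.0851 and 0.0677 without 21-day replicates 1, 2 and 3.

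Acsl1 is measured through 2 transcripts, of 3661 bases (ENSRNOT00000014235.3) and 2537 bases (ENSRNOT00000089501.1), and the shorter one was more abundant per length in every library. The longer transcript was at 80.7, 97.5 and 89.4 TPM in control, 78.7, 84.7 and 80.7 TPM after 3 days, 104.2, 92.5 and 97.9 TPM after 14 days and 126.7, 99.7 and 100.7 TPM after 21 days. The shorter one was at 160.2, 189.0 and 183.4 TPM in control, 153.0, 176.1 and 167.0 TPM after 3 days, 191.6, 181.8 and 198.1 TPM after 14 days and 199.4, 212.7 and 197.6 TPM after 21 days. Both transcripts had their lowest group mean after 3 days and their highest after 21 days. After 21 days the TPM ranges of both were apart from control and higher, as for 10.4% of the features. The transcripts are parts of the same gene and their counts were divided by estimation, so their likeness is not independent evidence. The group means of the longer transcript were 89.2 ± 8.40, 81.4 ± 3.07, 98.2 ± 5.89 and 109.0 ± 15.3 TPM (SD, n = 3 each), and those of the shorter one 177.5 ± 15.3, 165.3 ± 11.7, 190.5 ± 8.24 and 203.2 ± 8.25 TPM (SD, n = 3 each).

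Fitted apart, the longer transcript had a log2 fold change of 0.29 after 21 days against control (SE 0.119, adjusted p = 0.32, edgeR) and the shorter one of 0.21 (SE 0.109, adjusted p = 0.408). Against the 3-day group the 21-day values were 0.46 (adjusted p = 0.163) and 0.34 (adjusted p = 0.176). With DESeq2 both passed there, with adjusted p = 2.25e-05 and adjusted p = 0.00561, and also between 14 and 3 days, with adjusted p = 0.00112 and adjusted p = 0.0371. Over the days of stress the longer transcript rose by 0.13 on the log2 scale per week (SE 0.0327, adjusted p = 0.0308, edgeR), a call that was kept in 3 of 12 fits without 1 library: those without control replicate 2, control replicate 3 or 14-day replicate 2 (adjusted p between 0.0116 and 0.0416, and up to 0.0794 in the others). The shorter one had a slope of 0.095 (SE 0.0297, adjusted p = 0.0657), which passed with total counts (adjusted p = 0.0359), the filter of 10 counts in every library (0.0497), a replicate block (0.0454), DESeq2 (0.0279), limma on log2(TPM + 1) (0.0408) and without control replicate 2 (0.0351), so the transcripts are not shown to differ in this.

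The division of the Acsl1 counts between the transcripts differed little between groups. The longer transcript held 44.2%, 44.8% and 43.4% of the Acsl1 counts in the control libraries, 44.7%, 43.1% and 43.2% after 3 days, 46.2%, 44.4% and 43.7% after 14 days and 50.0%, 42.4% and 44.5% after 21 days. The first 21-day library stood apart, at 50.0% (Wilson 95% interval 49.3% to 50.7%), next to 42.4% in the second (41.8% to 43.1%), and these intervals cover counting error only. The group means were 44.1 ± 0.689%, 43.6 ± 0.867%, 44.8 ± 1.28% and 45.6 ± 3.91% (SD, n = 3 each). In 7 comparisons the two-sided exact permutation test gave p between 0.3 and 0.8 (each adjusted p = 0.8), and with 3 libraries against 3 it cannot go below 0.1. Reads that fit both transcripts were divided by the estimation that made the counts, as the counts were not whole in 12 and 11 of the 12 libraries, so the share depends on that step. The Agpat2 and Agpat3 counts were whole in every library.

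**Figure D2:**
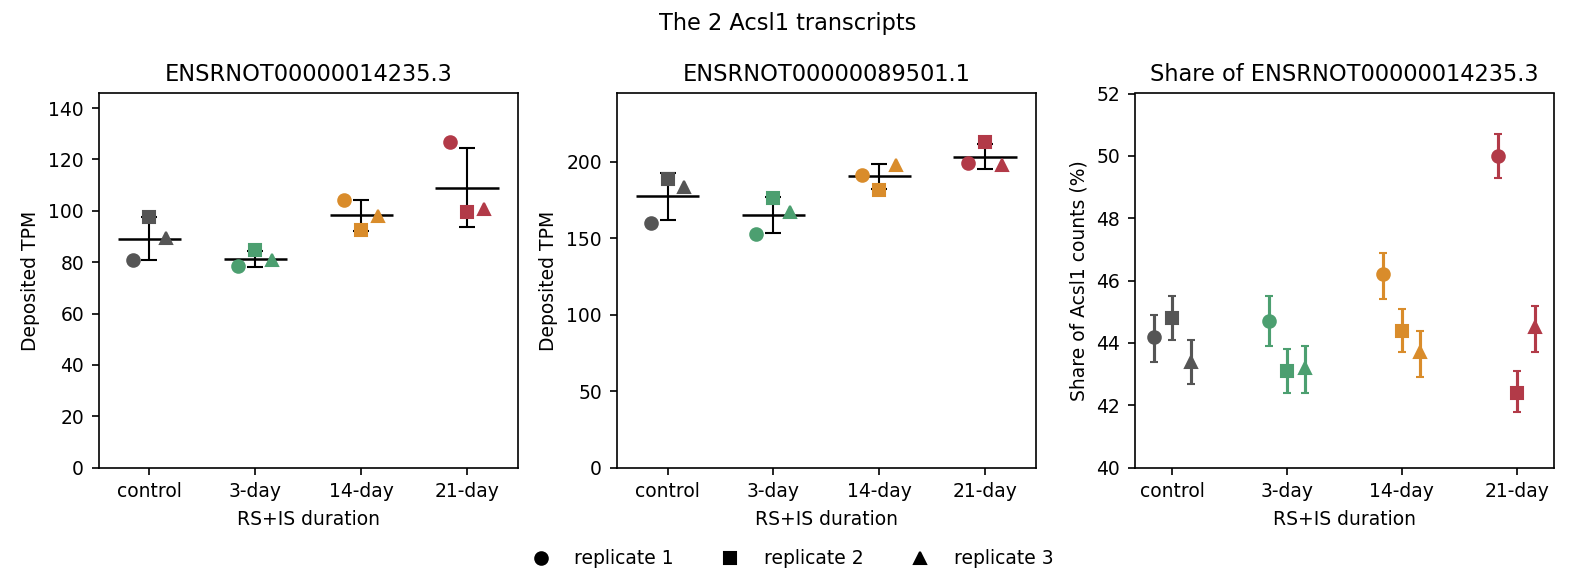
Left and middle, deposited TPM of the 2 Acsl1 transcripts by stress group with mean ± SD (n = 3 libraries), both axes from 0; right, share of ENSRNOT00000014235.3 in the Acsl1 counts of each library in percent with its Wilson 95% interval, on an axis that does not start at 0. Both transcripts have their highest mean after 21 days, and the share lies between 42.4% and 46.2% in 11 libraries and at 50.0% in the first 21-day library.

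Ratios within a library do not depend on how libraries are scaled. Acsl1 over Agpat3 was 5.52, 6.77 and 6.47 in control, 6.08, 6.66 and 6.42 after 3 days, 6.83, 6.93 and 6.66 after 14 days and 8.38, 7.16 and 7.0 after 21 days. All 21-day ratios were above those of the other 9 libraries. The mean log2 ratio was 2.90 ± 0.142 after 21 days and 2.64 ± 0.154 in control (SD, n = 3 each), a difference of 0.27 (two-sided exact permutation p = 0.1, the smallest possible with 3 against 3, and 0.42 after Benjamini-Hochberg adjustment over 21 tests). With the 14-day and 21-day libraries together the difference from control was 0.20 (exact permutation p = 0.0476, adjusted p = 0.42), where 6 against 3 allows 0.0238. Acsl1 over Agpat2 differed less, with group medians of 1.91, 1.85, 1.91 and 1.90 from control to 21 days and exact permutation p between 0.6 and 0.9. Agpat2 over Agpat3 was between 3.58 and 3.92 after 21 days and between 3.38 and 3.47 after 3 days, a log2 difference of 0.13 (exact permutation p = 0.1, adjusted p = 0.42).

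**Figure D3:**
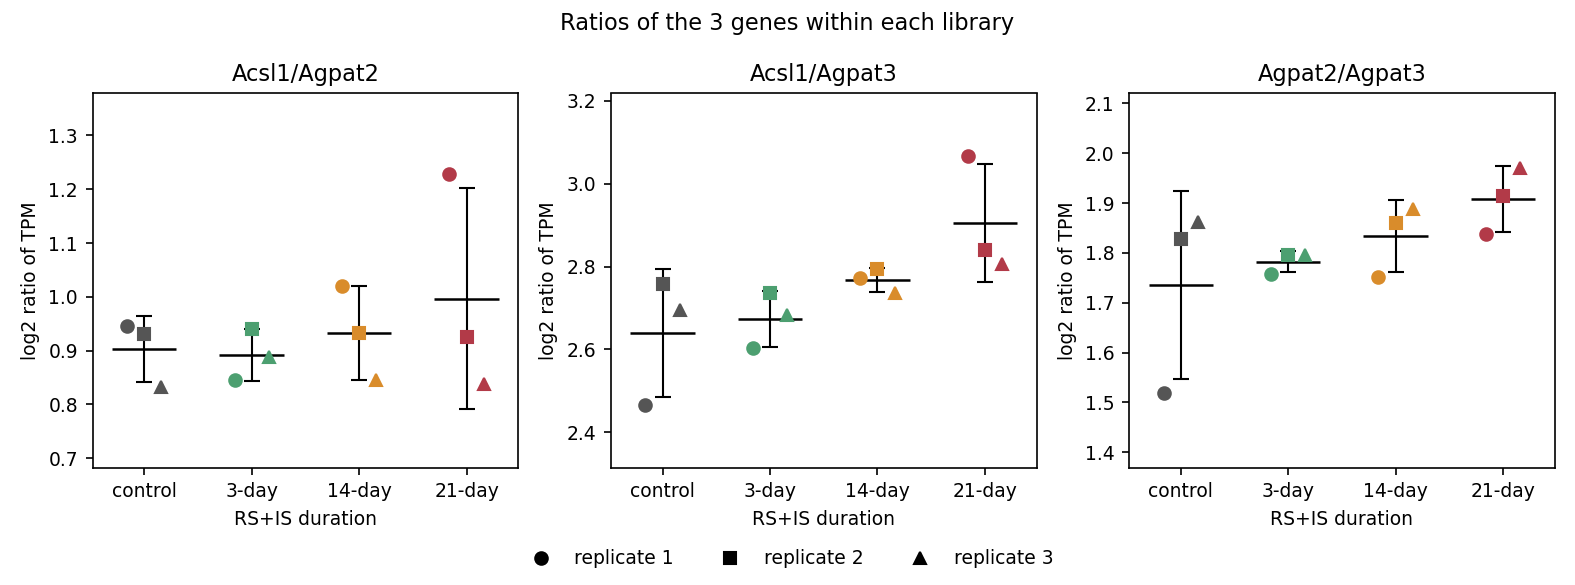
log2 ratio of deposited TPM within each library for the 3 pairs of genes (vertical axes, each over its own range and not from 0) by stress group, with mean ± SD (n = 3 libraries). The 21-day libraries lie above all others for Acsl1/Agpat3, where the first of them is highest at a log2 ratio of 3.07, and the groups overlap for Acsl1/Agpat2.

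Markers of the germ cell stages moved in the same libraries. The summed level of 5 spermatid markers (Tnp1, Tnp2, Odf1, Acrv1 and Gapdhs) was 26510 to 33280 TPM in control, 26970 to 29000 TPM after 3 days, 33140 to 36840 TPM after 14 days and 36780 to 39480 TPM after 21 days. Tnp1 and Tnp2 make up most of this sum, with means of 24540 and 7028 TPM after 21 days. Tnp1, a transition protein that packs the DNA of elongating spermatids, had a log2 fold change of 0.57 between 21 and 3 days (adjusted p = 0.0692, edgeR) and rose by 0.19 per week (adjusted p = 0.0061). Acrv1, an acrosomal protein of round spermatids, had means of 166.2, 178.0, 180.0 and 177.3 TPM from control to 21 days and a log2 fold change of 0.036 between 21 and 3 days (adjusted p = 0.83). The 4 spermatocyte markers (Sycp3, Piwil1, Sycp2 and Syce1) summed to 628.5 to 681.9 TPM in control, 648.5 to 713.4 TPM after 3 days, 593.0 to 612.9 TPM after 14 days and 563.3 to 590.4 TPM after 21 days. Sycp3 had the largest part of this sum, with means of 309.2 TPM in control and 257.6 TPM after 21 days. Syce1 had 105.4 and 102.4 TPM there. Over the days of stress Sycp3 fell (adjusted p = 0.0131, edgeR). Piwil1, Sycp2 and Syce1 did not pass (adjusted p = 0.0725, 0.191 and 0.895). The 3 spermatogonia markers (Stra8, Tex19.1 and Ccne2) summed to 46.6 to 49.7 TPM, 50.3 to 54.3 TPM, 37.0 to 40.3 TPM and 32.8 to 37.8 TPM from control to 21 days. The deposited TPM of Stra8 after 14 and 21 days and of Piwil1 after 14 days does not follow from the count, as it does for the 3 genes and for the other markers here. None of the 12 markers was at 0 in any group, and somatic markers were not analysed here. In stained sections the study counted fewer cells positive for Stra8, Sycp3, Piwil1 and Tnp1 after 14 and 21 days. As a share of all cells counted, it named only those positive for Sycp3 and Piwil1 as significantly lower. It reported no significant change of Tnp1 RNA under chronic stress. TPM is a share of the RNA in a library, so a higher value need not mean more transcript per testis. The part of these shifts in the levels of Acsl1, Agpat2 and Agpat3 was not tested. From whole testis RNA alone, fewer cells of a type and less RNA per cell cannot be told apart.

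All 384 spermatid markers, the class to which the 3 genes belong, had a median log2 fold change of -0.041 after 3 days, 0.098 after 14 days and 0.15 after 21 days against control, and of 0.16 between 21 and 3 days. Over all features these medians were -0.0087, -0.012, -0.0031 and -0.012. Acsl1 lay above the spermatid median in the comparisons with 14 and 21 days other than that of 14 days with control, where 193 of the 384 were higher, and below it after 3 days, where 343 were higher. Agpat3 lay below the spermatid median in each comparison with control, with 357, 353 and 353 markers higher.

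The 3 markers whose levels ran most like those of each gene were spermatid markers, a class that makes up 384 of the 575 named markers. Likeness was Pearson's r of log2 CPM over 12 libraries, which share depth, scaling and the stress groups, and it is given as a description. For Acsl1 the highest of 572 markers were Spz1 (r = 0.97), Nt5c1b (r = 0.967) and Spem1 (r = 0.961), against a median r of 0.558. Spz1, a transcription factor of the testis, had group means of 406.3, 383.6, 450.3 and 481.1 TPM from control to 21 days. The lowest values for Acsl1 were those of the spermatogonia markers Tex19.1 (r = -0.836) and Stra8 (r = -0.829) and the spermatocyte marker Znhit3 (r = -0.808). For Agpat2 the highest were Mex3d (r = 0.977), Spata20 (r = 0.963) and Sh3rf2 (r = 0.959), and for Agpat3 Asb8 (r = 0.875), Pdzd8 (r = 0.858) and Csnk1g2 (r = 0.851), against medians of 0.573 and 0.38. The lowest for Agpat2 were the spermatogonia markers Nucks1 (r = -0.778) and Hspa5 (r = -0.685) and the spermatid marker Tfam (r = -0.678), and for Agpat3 they were the spermatid markers Tex38 (r = -0.648), Apobec4 (r = -0.607) and Rasa3 (r = -0.558). Among the 3 genes themselves r was 0.791 for Acsl1 and Agpat2, 0.785 for Agpat2 and Agpat3 and 0.602 for Acsl1 and Agpat3.

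Another 14 markers of the study take part in the same glycerolipid pathway. Counted at an unadjusted p under 0.05, 0 were higher and 1 was lower after 3 days, 1 was higher after 14 days and 2 were higher after 21 days against control, with none lower at 14 or 21 days and median log2 fold changes of -0.073, 0.043 and 0.13 (edgeR). Over all features 2.03% were higher and 2.01% lower after 3 days, 7.2% higher and 4.87% lower after 14 days and 8.47% higher and 5.71% lower after 21 days. Against the 3-day group 6 were higher and 0 lower both after 14 and after 21 days, with medians of 0.11 and 0.14. Over all features 7.74% and 8.23% were higher and 5.67% and 8.33% lower there. Among the 384 spermatid markers, 177 and 176 were higher and 4 and 2 lower, with medians of 0.14 and 0.16. The 6 of 14 are thus no more than the spermatid markers as a class show. For 21 against 14 days 1 of the 14 was higher and 0 lower (median 0.040), where 1.7% of all features were higher and 1.35% lower. For 14 and 21 days together against control 2 of the 14 were higher and 0 lower (median 0.089), where 10.7% of all features were higher and 9.68% lower. None of the 14 passed the adjusted threshold of edgeR in these comparisons. With DESeq2 Lpin1 and Lipe passed for 14 against 3 days (adjusted p = 0.0462 and adjusted p = 0.0211), Gpd2, Lpin1 and Lipe for 21 against 3 days (adjusted p of 0.0217, 0.00248 and 2.93e-06), and Pla2g10 for 14 and 21 days together against control (adjusted p = 0.00692), each of them higher. Of all features DESeq2 called 417, 808 and 1664 in these comparisons, in either direction. The number of all features called higher and lower at the unadjusted threshold depended on the scaling. It was 428 and 423 after 3 days with the TMM factors used here and 652 and 290 with total counts, 1636 and 1199 (total counts 1343 and 1619) for 14 against 3 days, and 1745 and 1766 (total counts 1608 and 2215, RLE factors 1961 and 1283) for 21 against 3 days.

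Of the markers that handle glycerol and its phosphate, Aqp7, a channel for glycerol, and Gpd2, the mitochondrial enzyme that oxidises glycerol-3-phosphate to dihydroxyacetone phosphate, were among those 6, and Aqp9 and Gk2 were not. Gpd2 had means of 201.7 ± 22.0, 195.7 ± 12.9, 227.6 ± 18.6 and 233.7 ± 13.3 TPM (SD, n = 3 each) and a log2 fold change of 0.30 between 21 and 3 days (SE 0.0845, adjusted p = 0.187). Aqp7 had a log2 fold change of 0.18 (adjusted p = 0.252) there.

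Of the markers of synthesis, Lpin1, whose product removes the phosphate from the phosphatidic acid that AGPAT enzymes make, and Dgat2, which adds the last acyl chain of triacylglycerol, passed over the days of stress. Lpin1 had means of 123.4 ± 13.9, 119.6 ± 6.64, 134.0 ± 2.85 and 144.7 ± 4.43 TPM (SD, n = 3 each) and rose by 0.095 per week (SE 0.0267, adjusted p = 0.0452, edgeR). Dgat2 had means of 104.7 ± 4.69, 107.8 ± 5.42, 119.8 ± 8.25 and 118.6 ± 2.80 TPM (SD, n = 3 each) and rose by 0.078 per week (SE 0.0209, adjusted p = 0.0379). Both calls depended on single libraries, like that of Acsl1. Lpin1 kept its call without control replicate 2 (adjusted p = 0.0433) or control replicate 3 (adjusted p = 0.0237), and Dgat2 without control replicate 2 (adjusted p = 0.0444), and leaving out any other library ended them (adjusted p up to 0.125 and 0.0917). Bscl2, Crls1 and Lpcat2b had log2 fold changes between -0.022 and 0.061 for 21 against 3 days and none passed.

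Of the markers of breakdown, Lipe, the hormone-sensitive lipase, had the widest difference between 21 and 3 days. Its level was 81.3, 94.9 and 88.2 TPM in control, 69.5, 77.1 and 79.2 TPM after 3 days, 90.4, 84.3 and 91.5 TPM after 14 days and 101.8, 101.0 and 99.1 TPM after 21 days. All 3-day values lay below all others and all 21-day values above all others. TPM ranges apart and lower after 3 days than in control were found for 2.69% of the features. Ranges apart and higher held for 10.4% for 21 days against control and 8.73% for 14 against 3 days. They held for 7.97% for 21 against 3 days and 2.59% for 21 against 14 days. The log2 fold change of Lipe was -0.26 after 3 days against control (SE 0.0909, adjusted p = 0.985, edgeR) and 0.45 between 21 and 3 days (SE 0.0694, adjusted p = 0.155). Pla2g10, a secreted phospholipase, was at 48.9 ± 1.27 TPM in control and 57.0 ± 2.01 TPM after 21 days (SD, n = 3 each), a log2 fold change of 0.25 (SE 0.0773, adjusted p = 0.241), against 0.21 for Lipe in that comparison (adjusted p = 0.373). Mgll and Lypla1 did not pass the unadjusted threshold for 21 against 3 days, with log2 fold changes of 0.068 and 0.13, and Abhd16b had 0.23 (adjusted p = 0.257).

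Over the days of stress, 6 of these 14 markers had an unadjusted p under 0.05 and 2 an adjusted one, in each case higher, with a median slope of 0.044 per week. DESeq2 called 5 of the 14, all higher: Lpin1, Dgat2, Aqp7 (adjusted p = 0.0483), Gpd2 (adjusted p = 0.0275) and Pla2g10 (adjusted p = 0.0234). Of all features DESeq2 called 3060 in either direction there, where edgeR called 1844. With edgeR all features had a median slope of 0.0022, with 14.4% higher and 11.4% lower at the unadjusted threshold and 5.41% higher at the adjusted one. The 384 spermatid markers had a median slope of 0.061. At the unadjusted threshold 206 of them were higher and 3 lower, and 65 were higher at the adjusted one. The counts of all features higher and lower at the unadjusted threshold were 3171 and 2507, and 2828 and 3168 with total counts. Of 8 further lipid markers 3 were higher at the unadjusted and 1 at the adjusted threshold, with none lower. The latter was Scp2d1, a protein with a sterol carrier domain, with a slope of 0.084 per week (SE 0.0237, adjusted p = 0.0461), which kept its call in 1 of 12 fits without 1 library, that without 21-day replicate 1 (adjusted p = 0.013, and up to 0.171 in the others). Cyp51, an enzyme of sterol synthesis, had a log2 fold change of 0.22 between 21 and 3 days (adjusted p = 0.19, and 0.0316 with DESeq2). Against control these 8 markers had medians of 0.0013, 0.12 and 0.12 after 3, 14 and 21 days, with 1 higher and 0 lower at the unadjusted threshold each time, where 2.03%, 7.2% and 8.47% of all features were higher. The count was 2 higher for 14 against 3 days (median 0.086), 1 for 21 against 3 days (median 0.10), 0 for 21 against 14 days (median 0.027) and 1 for 14 and 21 days together against control (median 0.12), with 0 lower, beside 7.74%, 8.23%, 1.7% and 10.7% of all features higher. After 3 days that marker was Smpd5, a sphingomyelinase, with 0.21 (adjusted p = 0.985).

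**Figure D4:**
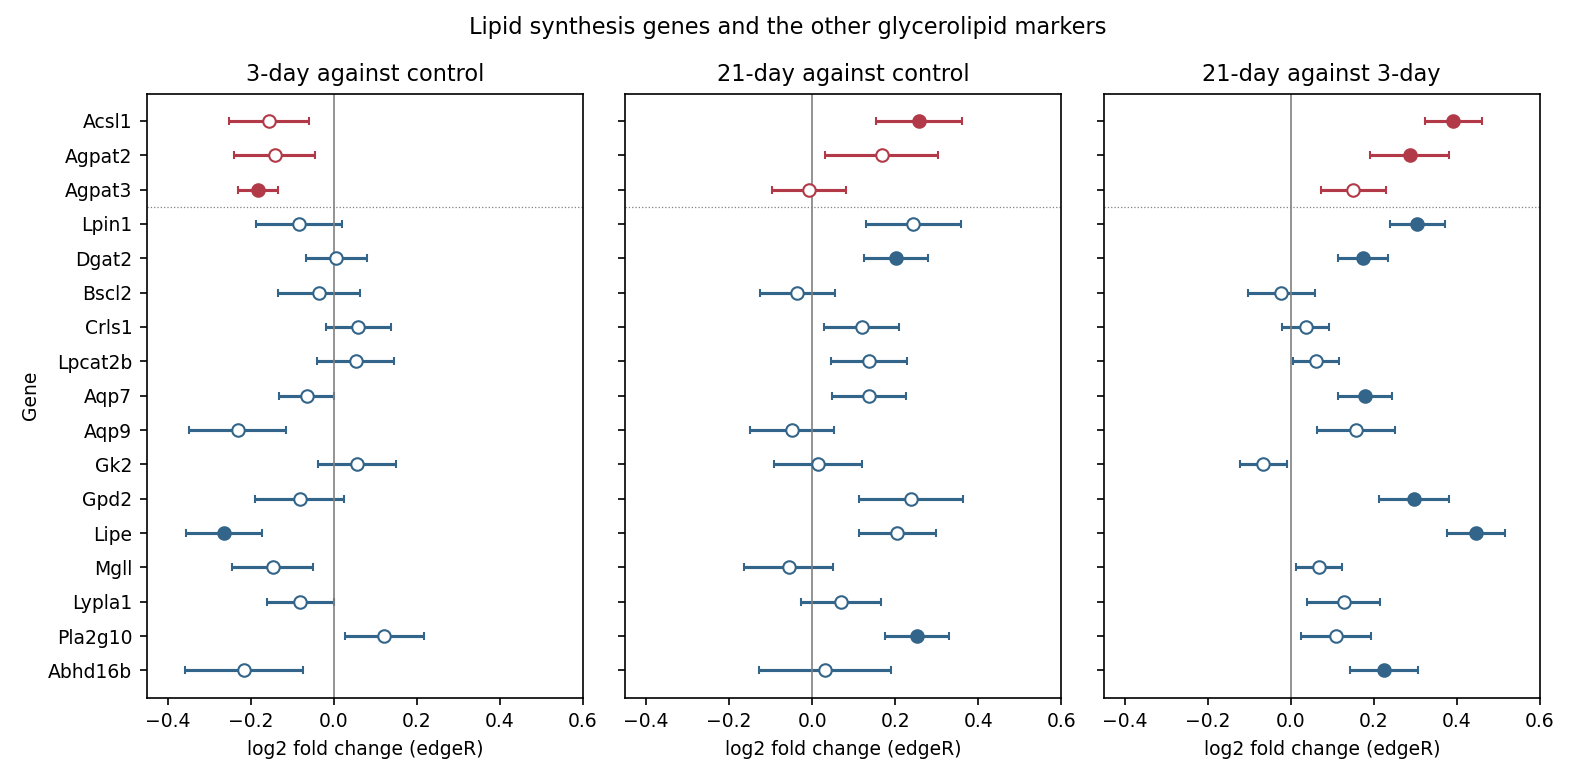
log2 fold changes from edgeR (points) with standard errors (bars) for the 3 genes, above the dotted line, and the 14 other glycerolipid markers in 3 comparisons, filled where the unadjusted p is under 0.05. No adjusted p is under 0.05 in these comparisons, and in the 21-day against 3-day panel Lipe at 0.45 and Acsl1 at 0.39 lie farthest to the right.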

How the data were processed

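RNA-seq tables of 12 rat testis samples were used, grouped by the condition in their labels. According to the study's methods, reads were trimmed with Trimmomatic, aligned to Rnor_6.0 with HISAT2 and counted with HTSeq. The deposited values are estimated counts, lengths and TPM for each of 31715 transcripts, with TPM made by the authors relative to length and library total, in the column layout of a pseudoaligner that the sources used here do not name. How the counts were divided between transcripts is not given in the sources used here. Totals ranged from 23908048 to 29404590 estimated counts per library.

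The tables hold no gene names. Names of 575 markers were found by matching the values of the marker table of the study to the transcripts, and the transcripts of a marker were summed, which gave 31522 features. The 3 genes and the lists of markers were chosen with earlier results of these data known. Named genes were the 3 genes, the 2 Acsl1 transcripts, members of the lipid lists with an unadjusted p under 0.05 in any comparison, cell type markers and the 3 most and least alike markers of each gene.

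Estimated counts were rounded and fitted per comparison with edgeR 4.0.16 (R 4.3.3), with TMM factors (0.952 to 1.04), filterByExpr and the quasi-likelihood test, and p-values were Benjamini-Hochberg adjusted over all features with a threshold of 0.05. The standard error is the log2 fold change over the square root of F. Likeness used log2 CPM with a prior count of 2. Shares and ratios were compared by two-sided exact permutation tests. The edgeR fit of 3 against 3 libraries was tested on simulated counts. The changes set there were larger than those of the 3 genes, so detection of differences of their size was not tested. Alternatives were RLE factors, total counts, no filter, a filter of 10 counts in every library, 1 fit of all libraries, DESeq2 1.42.0, limma 3.58.1 on log2(TPM + 1) for features with a mean of at least 0.1 TPM, a replicate block and leaving out each library. No 2 libraries of a group were close enough to be 1 library deposited again (chi-square per df 9.24 to 33.4). Sequences came from RefSeq. The other steps used SciPy 1.17.1, NumPy 2.4.6 and pandas 2.3.3 in Python 3.11.15.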

Additional observations from a re-analysis of the deposited data

Results flagged for a closer look

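The log2 ratio of Acsl1 over Agpat3 in 21-day replicate 1 was the highest of the 6 libraries of chronic stress, with a gap to the next that was 0.684 of their range, beyond Dixon's limit for 6 samples. Chance flags about 1 in 20 groups in this way.

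All 3-day libraries lay below the control mean and all libraries of a longer duration above it for several quantities. The difference between the group means was 42.0 TPM for Acsl1 between 14 and 3 days and 65.6 TPM between 21 and 3 days, and 18.6 TPM for Agpat2 between 14 and 3 days. It was 16.8 and 27.7 TPM for ENSRNOT00000014235.3, and 25.2 and 37.9 TPM for ENSRNOT00000089501.1, in the same order of durations. Since both durations share the control libraries, the test of the difference is the direct comparison of the durations. None passed the adjusted threshold with edgeR (adjusted p between 0.158 and 0.283). With DESeq2 Acsl1 passed (adjusted p = 0.00451 and 1.14e-05 for 14 and 21 days), as did ENSRNOT00000014235.3 (adjusted p = 0.00112 and 2.25e-05) and ENSRNOT00000089501.1 (adjusted p = 0.0371 and 0.00561), and Agpat2 did not. The 2 transcripts are parts of Acsl1 and not further genes. Of the 384 spermatid markers, 177 were higher for 14 against 3 days and 176 for 21 against 3 days at an unadjusted p under 0.05 (edgeR).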

How the results depend on the processing

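For the 3 genes, their ratios and the Acsl1 transcript share, 280 values were recomputed under other settings than leaving out a library. Of these, 273 kept their direction and their side of the threshold. The Acsl1 transcripts fitted apart and the numbers of all features called were not among the 280. Both transcripts gained calls with DESeq2, and the shorter one passed over the days of stress in several settings. The features called for 21 days against control went from 4 to 742 with DESeq2. With DESeq2, 1 of the 3 genes passed for 14 against 3 days and 1 for 21 against 3 days, in both cases Acsl1 (log2 fold changes 0.252 and 0.41). With no filter on low counts 0 of the 3 passed over the days of stress (Acsl1 slope 0.104, adjusted p = 0.0525). The trend calls of Lpin1, Dgat2 and Scp2d1 were also lost with no filter (adjusted p = 0.0693, 0.0638 and 0.074), those of Lpin1 and Scp2d1 with RLE factors (adjusted p = 0.0503 and 0.0543) and that of Scp2d1 with limma (adjusted p = 0.0823). With limma on log2(TPM + 1), Agpat3 was at -0.0242 for 21 against 14 days. The cause was not tested in any of these.

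Replicate numbers were shared between groups, but same-numbered libraries did not deviate together in every pair (mean correlation between -0.0321 and 0.118). In fits with a replicate block, Acsl1 had 0.262 after 21 days against control, and 1 of the 3 genes passed over the days of stress. The block left 0 features past the adjusted threshold for 21 days against control, where 4 passed without it, and 17 for the 14-day and 21-day libraries together, where 351 passed.

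Leaving out each library in turn turned the direction of several differences, none of which had passed a test, and in 9 of 12 fits ended the call of Acsl1 over the days of stress. That slope ranged from 0.0923 to 0.124, with 0 to 1 of the 3 genes passing, and that of Agpat3 from -0.000857 to 0.0407. Against control, the log2 fold change after 14 days ranged from -0.012 to 0.148 for Agpat2, from -0.0708 to 0.0238 for Agpat3 and from -0.00314 to 0.146 for ENSRNOT00000089501.1. For Agpat3 it ranged from -0.0847 to 0.0682 after 21 days and from -0.0473 to 0.00467 with both durations together. For 21 against 14 days it ranged from -0.0106 to 0.181 for Agpat2 and from -0.064 to 0.095 for Agpat3. The share of the longer Acsl1 transcript differed by -0.0813 to 1.16 percentage points for 14 days and by -0.696 to 3.08 for 21 days against control, by -0.215 to 3.56 for 21 against 3 days and by -1.32 to 2.46 for 21 against 14 days, and was negative in the last 3 without 21-day replicate 1. The log2 ratio of Acsl1 over Agpat2 differed from control by -0.0467 to 0.0119, -0.014 to 0.0731 and -0.0222 to 0.173 after 3, 14 and 21 days. For 14 against 3, 21 against 3 and 21 against 14 days it differed by -0.00264 to 0.0844, -0.0109 to 0.185 and -0.052 to 0.144. For Acsl1 over Agpat3 the difference from control was -0.052 to 0.0949 after 3 days and 0.11 to 0.257 for 14 and 21 days together (exact permutation p between 0.0357 and 0.143, and above 0.05 without 8 of the 9 libraries), and for Agpat2 over Agpat3 it was -0.0623 to 0.109 after 3 days and -0.0107 to 0.161 after 14 days. Each gene rested on at least 2429 estimated counts in every library.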
